A study of Mus musculus with 444 samples.

Results

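Spp1, Ltf, Trf, Fcgbp, Lrg1, Slc5a8, Slc28a3 and Kit are 8 of the 25137 genes measured in single cells of the mouse mammary epithelium, and they encode secreted proteins, membrane transporters and a receptor known from luminal progenitor cells. They were chosen because their measured levels in these same cells differed by stage or by lineage, so their levels by stage and lineage are a description, without a test. The labels list 221 pubertal and 223 adult cells. All came from untreated FVB/NJ mice, an inbred laboratory strain, and from total mammary epithelium. The names of the count tables give ages of 4 and 10 weeks, and the methods of the study give a slightly higher age for the pubertal mice. A figure legend of the study gives several mice per sort and more than 1 independent experiment, which the cell titles do not name. Cells carrying Ter119, CD31 or CD45 were gated out, which is meant to remove red, endothelial and blood cells. Each cell was captured on the Fluidigm C1, a microfluidic chip with 1 cell per chamber, where polyadenylated RNA was copied into cDNA and amplified without molecular identifiers. The labels name no animal for any cell, so each stage is 1 sample. Stage differences therefore have no replicate check and no p-value.

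The mammary epithelium has a basal layer of contractile cells around an inner luminal layer. Luminal cells comprise mature cells that carry hormone receptors and progenitors that lack them and give rise to the milk-secreting alveolar cells. Luminal progenitors are known for the receptor Kit and the transcription factor Elf5, and they already make secreted proteins that guard the duct lumen and are abundant in milk, such as lactoferrin and transferrin. Aldh1a3, which makes retinoic acid from retinaldehyde, is another gene of these progenitors, and caseins are the main proteins of milk.

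Of the 8 genes, 5 encode secreted proteins. Spp1 (gene 20750, chr5:104435111-104441053) encodes osteopontin, a phosphoprotein of milk and bone that binds integrins and Cd44. Ltf (gene 17002, chr9:111019292-111042766) encodes lactoferrin and Trf (gene 22041, chr9:103208876-103230286) encodes transferrin, both of which bind iron. Fcgbp (gene 215384, chr7:28071236-28120864) encodes a mucin-like protein of mucosal secretions, and Lrg1 (gene 76905, chr17:56119678-56121946) encodes a leucine-rich glycoprotein. Slc5a8 (gene 216225, chr10:88885992-88929515) carries lactate and short-chain fatty acids with sodium, and Slc28a3 (gene 114304, chr13:58553307-58610877) carries nucleosides with sodium. Kit (gene 16590, chr5:75574987-75656722) encodes the tyrosine kinase receptor of stem cell factor. Positions are those of the whole protein-coding gene, exons and introns, in the RefSeq annotation of GRCm38.p6, the assembly that mm10 also names. Fcgbp overlaps the gene Gm21925 there, so part of its counts is uncertain.

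Because caseins and the secreted genes are compared cell by cell here, the sequence before their starts is shown for 2 caseins and for 3 of the 8 genes. RefSeq entries of GRCm38.p6 were found for every gene of the 8 except Trf and for 3 of the 5 caseins. The windows hold the 150 bases before the start, 5′ to 3′ on the strand of the gene. Capitals mark TTCNNNGAA, the letters known to be bound by STAT5, the factor that relays prolactin to milk genes, and GGAAG, a core bound by ETS factors such as Elf5, read on either strand so that CTTCC also counts. The windows are chr5:87666058-87666207 on the plus strand for Csn1s1, chr5:87699426-87699575 on the minus strand for Csn2, chr5:104434961-104435110 on the plus strand for Spp1, chr9:111019142-111019291 on the plus strand for Ltf and chr17:56121947-56122096 on the minus strand for Lrg1.
Csn1s1: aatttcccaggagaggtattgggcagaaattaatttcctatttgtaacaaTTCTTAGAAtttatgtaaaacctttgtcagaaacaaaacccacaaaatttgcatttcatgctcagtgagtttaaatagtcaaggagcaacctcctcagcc
Csn2: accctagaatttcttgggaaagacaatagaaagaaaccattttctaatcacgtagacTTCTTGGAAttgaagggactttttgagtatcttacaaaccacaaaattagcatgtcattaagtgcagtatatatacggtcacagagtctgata
Spp1: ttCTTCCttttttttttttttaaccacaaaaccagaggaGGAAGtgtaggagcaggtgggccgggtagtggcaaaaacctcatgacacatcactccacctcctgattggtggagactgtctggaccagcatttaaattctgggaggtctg
Ltf: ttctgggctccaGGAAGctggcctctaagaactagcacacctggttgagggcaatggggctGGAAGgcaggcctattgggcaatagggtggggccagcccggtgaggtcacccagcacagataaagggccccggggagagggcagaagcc
Lrg1: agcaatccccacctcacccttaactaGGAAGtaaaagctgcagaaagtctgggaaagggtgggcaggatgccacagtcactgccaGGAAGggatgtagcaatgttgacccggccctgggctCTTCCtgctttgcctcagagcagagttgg
TTCNNNGAA stood 100 bases before the start of Csn1s1 and 93 bases before that of Csn2, but not in the window of Csn1s2a, the other casein with an entry. It stood in none of the windows of the 7 genes with an entry. It occurs in 4.09% of the 32851 RefSeq promoters of this length. GGAAG occurred in 4 of the 7 genes, with 2 matches each in Spp1, Ltf and Fcgbp and 3 in Lrg1, and in 0 of the 3 caseins. These are windows of the first annotated start, and a second start of Spp1 had 0 matches of either motif. Since 47.7% of all promoters hold GGAAG, its share among the 7 is near the background, and matches describe letters and not binding.

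Cells with at least 100000 read pairs and 1500 detected genes were used, 171 pubertal cells (77.4%) and 152 adult cells (68.2%). Read pairs assigned to genes had ranged from 2 to 1456360 per pubertal and from 1 to 1167991 per adult cell. Levels are given at an equal depth of 100000 read pairs drawn from every such cell, at which 1 read pair of a cell equals 10 CPM, the depth-scaled count used below. The adult cells fell into sets that an earlier look at these data had found to stand apart: those whose titles number them 48 to 188, of which 107 of 141 were retained (75.9%), and the other adult cells, of which 45 of 82 were retained (54.9%). What these numbers stand for is not given in the labels, so the level of each of the 8 genes is given for both sets as well as for the pooled adult cells. At equal depth the median cell had 2827 genes in puberty, 2866 in adult cells 48 to 188 and 2200 in the other adult cells. Intervals below are exact Poisson intervals for sums and exact Clopper-Pearson intervals for shares at the 95% level, and they cover counting error only.

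Spp1 was detected in 14 of 171 pubertal cells (8.19%, interval 4.55 to 13.4%), where it ranged from 0 to 26780 CPM with a median of 0. In adult cells 48 to 188 it was detected in 81 of 107 (75.7%, 66.5 to 83.5%), with a median of 30 and a maximum of 44300 CPM, and in the other adult cells in 7 of 45 (15.6%, 6.49 to 29.5%), with a median of 0 and a maximum of 151310 CPM. The ranges overlapped from 0 upwards, and in each set a few cells held most of the osteopontin reads. The sum over cells was 12.5-fold higher (12.1 to 12.9) in the adult, at 2677 CPM, than in puberty, at 214.5 CPM. In puberty 1 cell held 73.0% of the Spp1 reads, and in the other adult cells 1 cell held 83.2%. Leaving out the highest cell of each stage gave 58.2 and 1693 CPM. In a sum over cells, fewer cells that express a gene and less RNA per cell cannot be told apart. Beside the shares above, the median among cells with Spp1 reads was 390 CPM in puberty. It was 90 CPM in adult cells 48 to 188 and 740 CPM in the others.

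Transferrin had the most widely detected transcript of the 8. Trf reads were found in 49 pubertal cells (28.7%, 22.0 to 36.1%), with a median of 0 and a maximum of 47700 CPM. They were found in 97 adult cells 48 to 188 (90.7%, 83.5 to 95.4%), with a median of 400 and a maximum of 85950 CPM, and in 24 other adult cells (53.3%, 37.9 to 68.3%), with a median of 10 and a maximum of 29680 CPM. The adult sum of 4130.5 CPM was 3.19-fold the pubertal 1296 CPM (3.14 to 3.24). That difference was carried by the cells 48 to 188 (5329 CPM), since the other adult cells, at 1282 CPM, differed little from puberty (log2 ratio −0.02). Ltf, the other iron-binding gene, was detected in 16 pubertal cells (9.36%, maximum 10590 CPM) and 31 adult cells 48 to 188 (29.0%, maximum 16170 CPM). No read of it was found in the 45 other adult cells, which allows a share of up to 6.67% when 0 is set to 3 cells (exact upper bound 7.87%), and before thinning 2.22% of these cells had a read. Its sums of 316.1 CPM in the adult and 203.1 CPM in puberty had a ratio of 1.56 (1.49 to 1.63), which pools 449.0 CPM in cells 48 to 188 and 0 in the others.

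Fcgbp and Lrg1 were rare in puberty. Fcgbp was detected in 9 pubertal cells (5.26%, maximum 1720 CPM), in 64 adult cells 48 to 188 (59.8%, median 10, maximum 5710 CPM) and in 15 other adult cells (33.3%, maximum 11070 CPM). The median cell was at 0 in puberty and in the other adult cells. Its sums of 25.3 and 437.8 CPM made it 17.3-fold higher in the adult (15.7 to 19.2), with 485.1 CPM in cells 48 to 188 and 325.3 CPM in the others. Lrg1 was detected in 10 pubertal cells (5.85%, maximum 1230 CPM), 21 adult cells 48 to 188 (19.6%, maximum 5620 CPM) and 5 other adult cells (11.1%, maximum 1400 CPM), with a median of 0 in each set. Its adult sum of 156.6 CPM was 13.8-fold the pubertal 11.4 CPM (11.9 to 16.1), and both adult sets were above puberty (191.8 and 72.9 CPM). A single pubertal cell held 63.4% of the pubertal reads, and leaving out the highest cell of each stage gave 4.18 and 120.4 CPM.

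The transporters stood on opposite sides of the stage comparison. Slc5a8 was detected in 18 pubertal cells (10.5%, maximum 6720 CPM), in 10 adult cells 48 to 188 (9.35%, maximum 630 CPM) and in 0 of the 45 others, with the same limits as for Ltf. Its adult sum of 8.55 CPM, all from cells 48 to 188 (12.2 CPM), was 7.86-fold lower than the 67.2 CPM of puberty, although a single pubertal cell held 58.4% of the pubertal reads. Leaving out the highest cell of each stage gave 28.1 and 4.44 CPM. Slc28a3 was detected in 14 pubertal cells (8.19%, maximum 1110 CPM), 32 adult cells 48 to 188 (29.9%, maximum 1540 CPM) and 5 other adult cells (11.1%, maximum 2120 CPM). Its sums were 21.5 and 86.2 CPM, 4.01-fold higher in the adult (3.57 to 4.51), with 74.0 CPM in cells 48 to 188 and 115.1 CPM in the others. The receptor gene Kit was detected in 27 pubertal cells (15.8%, maximum 920 CPM), 29 adult cells 48 to 188 (27.1%, maximum 530 CPM) and 6 other adult cells (13.3%, maximum 590 CPM). Its sums were 25.6 CPM in pubertal and 19.6 CPM in adult cells (18.6 in cells 48 to 188 and 22.0 in the others), a log2 ratio of −0.38 that was −1.03 on unthinned counts.

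**Figure D1:**
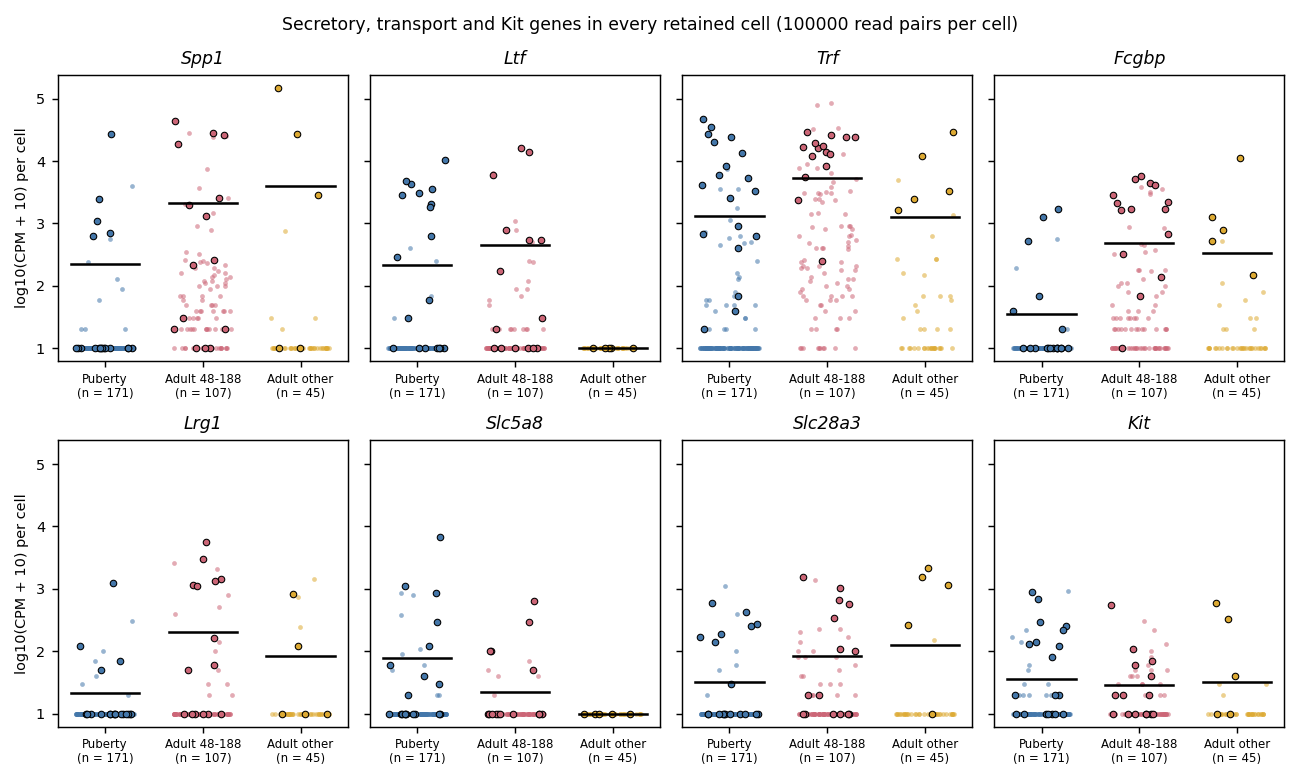
Level of each gene in every retained cell, as log10(CPM + 10) at 100000 read pairs per cell, for 171 pubertal cells, 107 adult cells 48 to 188 and 45 other adult cells; outlined points are luminal progenitor-like cells and black bars mark the level of the mean CPM of the set. Most cells lie at 0 CPM (a value of 1 on the axis) for every gene but Trf in the adult and Spp1 and Fcgbp in adult cells 48 to 188, and the cells with the highest levels are mostly the outlined ones.

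In all, 5 of the 8 genes were at least 2-fold higher in the adult sum (Spp1, Trf, Fcgbp, Lrg1 and Slc28a3) and 1 was at least 2-fold lower (Slc5a8). Among all 7806 genes that reached 20 CPM in a stage, 14.8% were at least 2-fold higher and 20.3% at least 2-fold lower, but since the 8 genes were chosen on these values, nothing is read from the contrast. Against puberty, 6 of the 8 genes were higher and 1 lower in cells 48 to 188, where 16.3% of all genes were higher and 26.3% lower, and 4 were higher and 2 lower in the others, where 20.5% and 28.4% were. The median log2 ratio of adult over puberty was 1.84 over the 8 genes and −0.09 over all genes. Scaled by exon length as well as depth, in RPKM, Trf led in both stages (555.9 and 1771). In puberty Spp1 (129.4 RPKM) and Ltf (74.1) followed, then Slc5a8 (12.6), Lrg1 (8.38), Kit (4.93), Slc28a3 (4.71) and Fcgbp (3.19). In the pooled adult cells Spp1 (1615 RPKM), Lrg1 (115.7), Ltf (115.3), Fcgbp (55.2), Slc28a3 (18.9), Kit (3.78) and Slc5a8 (1.60) followed. The adult order differed by set, with 2285 RPKM of Trf and 1269 RPKM of Spp1 in cells 48 to 188 but 549.6 and 2436 RPKM in the others, and with 163.7 RPKM of Ltf and 141.7 RPKM of Lrg1 against 0 and 53.9 RPKM. Kit and Slc28a3 in puberty lay too close for their order to be read against the spread between cells.

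Within the adult, 3 of the 7 genes that reached 20 CPM were at least 2-fold higher in cells 48 to 188 than in the others, and 0 were lower. Of 7669 genes, 26.8% were higher and 28.7% lower by that measure. Leaving out the highest cell of each gene in each set raised the count of higher genes from 3 to 5. Trf was 4.16-fold higher (4.05 to 4.27) and Lrg1 2.63-fold higher (2.34 to 2.97) in cells 48 to 188, and Ltf was at least 673.5-fold higher when its absence from the others is set to 3 reads over the set. Spp1 was lower in cells 48 to 188 by sums, with 2104 against 4039.6 CPM. This direction rested on the 1 other adult cell with 151310 CPM, without which the other set had 692.5 CPM.

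To place the genes by lineage, cells were grouped by their levels of 318 genes of the basal and luminal lineages, without the 8 genes, Elf5, Aldh1a3 or any milk protein gene. With 5 clusters, 39 cells formed a luminal progenitor-like class led by Car2, Wfdc18, Cd14 and Muc15, of which 19 were pubertal and 20 adult (15 of the cells 48 to 188 and 5 others). A mature luminal-like class held 97 cells, a basal-like class 62 cells with Serpina3n, Oxtr, Krt14 and Krt17 among its leading genes, and clusters of 34 and 91 cells stayed unnamed. The unnamed cluster of 91 was led by Ccl2, Ly6c1, Pmp22, Cd34, Col3a1, Dcn and Fabp4, with 2 fibroblast markers and 1 adipocyte marker among its 10 leading genes. It had 6 of 12 basal markers raised and none of either luminal class, and 24 of its 91 cells had reads of 3 or more of 8 fibroblast markers. With 7 clusters, 10 of these cells formed a fibroblast-like cluster. In the progenitor-like class 6 of 12 luminal progenitor markers were raised, and the 12 had a median summed level of 9380 CPM per cell (1790 to 68180), against 60 CPM in mature luminal-like, 110 CPM in basal-like and 250 CPM in cluster 5 cells, where 37 of 91 cells had 3 or more of them. These names were rebuilt from marker genes and may differ from the names the study gave its cells.

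All 8 genes had their highest level in the luminal progenitor-like class, in puberty and in the adult, save that Ltf and Slc5a8 had no read in the other adult cells. In puberty each of the 8 was at least 2-fold higher there than in the mature luminal-like class, where 25.0% of 7385 genes were. In the adult again 8 of 8 were higher, against 29.1% of 6873 genes. The rule that named these genes drew on their levels by lineage, so these shares describe the choice. Trf had 10505 CPM in the pubertal progenitor-like cells and 60.5 CPM in the pubertal mature luminal-like cells. Ltf had 1790 against 7.16 CPM, and Slc5a8 483.2 against 2.09 CPM. In the pooled adult cells Lrg1 had 739.5 CPM in progenitor-like and 145.7 CPM in mature luminal-like cells (5.08-fold, 4.56 to 5.66), and Kit 87.0 against 10.7 CPM (8.16-fold, 5.57 to 12.3). For Kit this gap was 53.3 against 23.1 CPM in cells 48 to 188 and 188.0 against 1.18 CPM in the others, and for Lrg1 it was 924.7 against 228.5 CPM and 184.0 against 82.4 CPM. Ltf and Slc5a8 had no read in the 30 adult mature luminal-like cells.

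**Figure D2:**
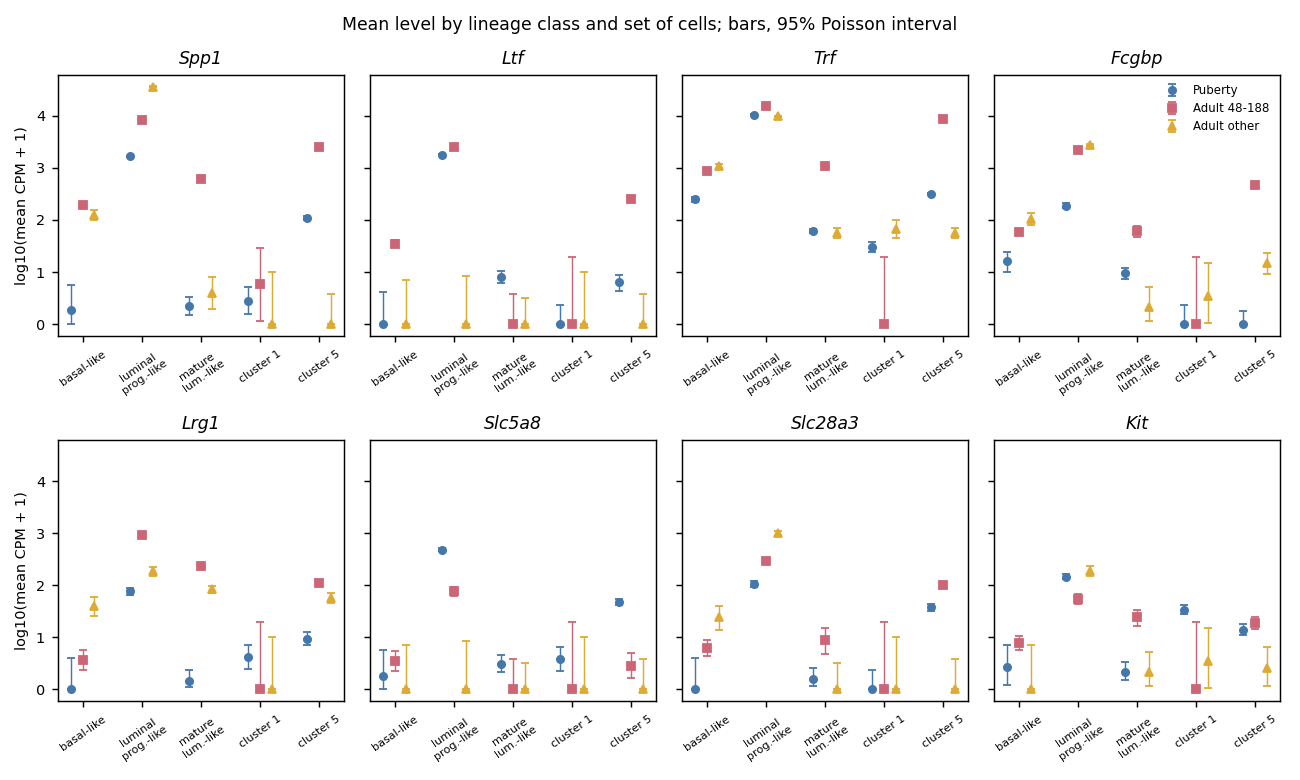
Mean level of each gene by lineage class, as log10(mean CPM + 1), for puberty (circles), adult cells 48 to 188 (squares) and other adult cells (triangles), with 95% Poisson intervals for counting error. The luminal progenitor-like class is the highest for each gene in puberty and in adult cells 48 to 188, and Trf in adult cells 48 to 188 reaches 8705 CPM in unnamed cluster 5 against 15356 CPM in the progenitor-like class.

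Luminal progenitor-like cells made up 11.1% of the retained pubertal cells and held 97.9% of the pubertal Ltf reads, 90.0% of the Trf reads and 86.2% of the Spp1 reads. Their part was smaller for Kit (62.9%) and Slc28a3 (54.3%). Slc28a3 had 44.6% of its pubertal reads in unnamed cluster 5, most of them from 1 cell at 1110 CPM. Kit had 21.3% of its pubertal reads in unnamed cluster 1, nearly all of them from a single cell. In the adult, where the class made up 13.2% of cells, it held 86.9% of the Slc5a8 reads, 79.5% of the Ltf reads and 74.9% of the Spp1 reads. Trf had 44.5% of its adult reads in progenitor-like cells and 45.9% in unnamed cluster 5. The 2 cells with the most Trf of all, with 8595 and 8071 of the 28799 Trf reads of that adult cluster, were cells 48 to 188. In the other adult cells Trf had 85.4% of its reads in progenitor-like cells and 1.27% in cluster 5, and Lrg1 had 28.0% in progenitor-like and 42.7% in mature luminal-like cells.

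Within the progenitor-like class the stages differed gene by gene. Every one of these cells had Trf reads: 19 pubertal cells ranged from 10 to 47700 CPM with a median of 4140, and 20 adult cells ranged from 240 to 29680 CPM with a median of 13500. The ranges overlapped, and the class sums differed by 1.33-fold (10505 and 13981 CPM). Ltf was alike by sum (1790 and 1910 CPM) but was found in 12 of 19 pubertal and 9 of 20 adult cells, all 9 of them among cells 48 to 188. Spp1 was found in 5 of 19 pubertal cells, with a median of 0, and in 15 of 20 adult cells, with a median of 785 CPM. Its class sums of 1664 and 15244.5 CPM, a 9.16-fold difference, became 268.9 and 8083 CPM once the highest cell of each stage was left out. Of the 8 genes, Fcgbp separated the stages most in detection, with 6 of 19 pubertal cells (maximum 1720 CPM) and 19 of 20 adult cells (median 1680, maximum 11070 CPM), and its sums were 187.9 and 2332 CPM. Lrg1 was found in 4 pubertal and 11 adult cells, with sums of 75.8 and 739.5 CPM.

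Slc28a3 was found in 8 pubertal and 13 adult progenitor-like cells, with sums of 105.3 and 469.0 CPM. Slc5a8 went the other way, with 9 pubertal cells (maximum 6720 CPM) and 5 adult cells (maximum 630 CPM) and sums of 483.2 and 56.5 CPM. Kit was found in 12 pubertal and 11 adult cells, with a median of 10 CPM in both. Thus 4 of the 8 genes were at least 2-fold higher in adult progenitor-like cells and 1 was lower. Across 6661 genes the same comparison of 20 with 19 cells called 33.5% higher and 36.3% lower, so differences of this size are common between so few cells. With only the 15 cells 48 to 188 in the adult group, the same 4 genes stayed at least 2-fold higher and Slc5a8 lower, and Kit was lower as well (53.3 against 144.7 CPM), where 31.7% of all genes were higher and 40.7% lower. Elf5 and Aldh1a3 were lower in adult than in pubertal progenitor-like cells, Elf5 with 24.0 CPM in 6 cells against 126.3 CPM in 7 cells, and Aldh1a3 with 9.50 CPM in 3 cells against 268.9 CPM in 11 cells. In the 15 adult progenitor-like cells 48 to 188, Elf5 was at 4.67 CPM and Aldh1a3 at 0.667 CPM.

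**Figure D3:**
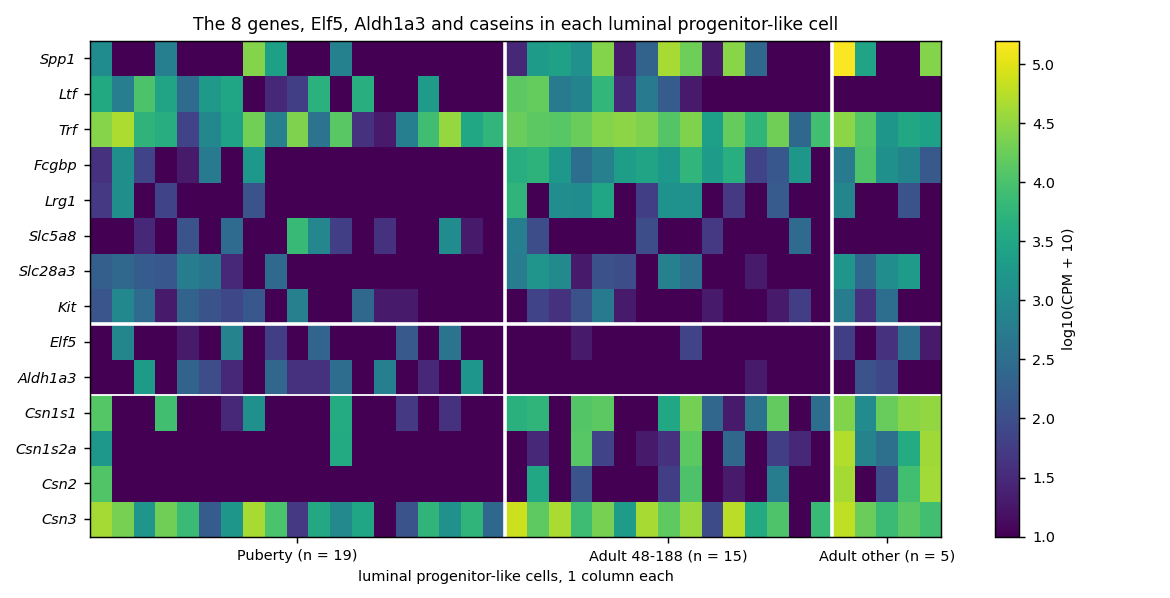
Level of the 8 genes, Elf5, Aldh1a3 and 4 caseins in each of the 39 luminal progenitor-like cells, 1 column per cell, coloured by log10(CPM + 10), with vertical white lines between 19 pubertal cells, 15 adult cells 48 to 188 and 5 other adult cells. Trf is present in every column, Fcgbp in 6 of the 19 pubertal and 19 of the 20 adult columns, and Aldh1a3 in 11 of the 19 pubertal and 3 of the 20 adult columns.

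Reads of the 8 genes were also found in classes that should lack them. Among the 44 basal-like cells of the adult set 48 to 188, Trf was detected in 41, Spp1 in 31, Fcgbp in 20 and Ltf in 11. At equal depth the share with Spp1 reads was 70.5% in these basal-like cells, 76.9% in mature luminal-like and 80.0% in progenitor-like cells of that set, so no difference between classes is read from these shares. Levels did differ, with 194.8 CPM of Spp1 in basal-like cells, 2.36% of the 8260 CPM in progenitor-like cells, and 873.0 CPM of Trf, 5.69% of 15356 CPM. Other abundant genes were spread in the same way there. Csn3 was detected in 36 and Wfdc18 in 34 of the 44 basal-like cells, and the basal keratin Krt14 in 13 of the 15 progenitor-like cells, at 404.7 CPM. Of the 6 basal-like cells among the other adult cells, 4 had Trf, 3 had Fcgbp and 1 each had Spp1, Lrg1 and Slc28a3. Ltf, Slc5a8 and Kit had no read in these 6 cells. Their Trf level was 1075 CPM, 10.9% of the 9856 CPM in progenitor-like cells of that set. Csn3 was in 5 of the 6, and Krt14 in 4 of the 5 progenitor-like cells, at 22.0 CPM. In puberty, of 12 basal-like cells, 8 had Csn3, 4 had Trf, 2 had Kit and 1 each had Spp1, Fcgbp and Slc5a8, and Krt14 was found in 4 of 19 progenitor-like cells at 2.11 CPM. The part of such spread in the higher adult detection of Trf, Spp1 and Fcgbp was not tested.

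**Figure D4:**
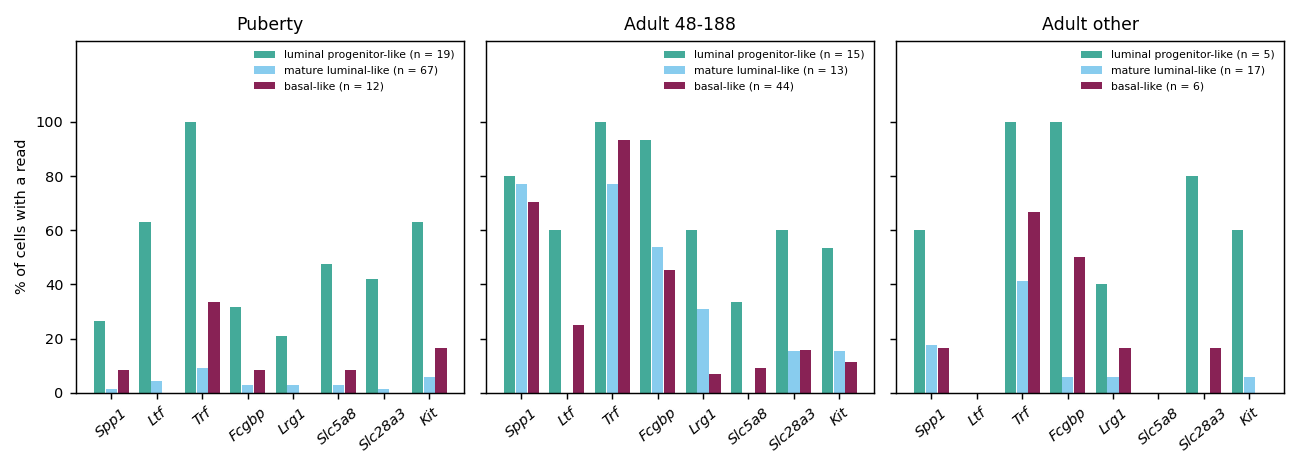
Share of cells with at least 1 read of each gene at 100000 read pairs per cell, by lineage class, in puberty, in adult cells 48 to 188 and in the other adult cells, with the number of cells of each class in the legends. In adult cells 48 to 188 the basal-like and mature luminal-like bars for Spp1 (70.5 and 76.9%) and Trf (93.2 and 76.9%) are close to the progenitor-like bars (80.0 and 100%), whereas in puberty those bars stay at or under 33.3%.

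Several of the 8 genes are also known from blood cells, Spp1 from macrophages, Ltf and Lrg1 from neutrophils and Kit from mast cells. The 26 cells with 10 or more Ltf reads had no reads of 7 of 8 neutrophil markers, among them S100a9, Mpo, Camp and Ngp, and only 1 of them had S100a8, at 390 CPM. The 21 cells with 10 or more Lrg1 reads lacked the same 7 markers, and 2 of them had S100a8, at up to 390 CPM. Among these 21, 1 cell had reads of 3 or more of 6 endothelial markers, at a summed 2700 CPM. The 19 cells with 10 or more Kit reads had no read of any of the 6 mast cell markers, Cpa3 and Mcpt4 included. In the 52 cells with 10 or more Spp1 reads, the macrophage markers Adgre1, Lyz2, Mrc1 and C1qb were at 0, the summed level of the 8 macrophage markers ranged from 0 to 280 CPM, and no cell had 3 of them. Of the 52 Spp1 cells, 38 had reads of 3 or more of 12 luminal progenitor markers (median summed level 4305 CPM), 49 of 3 or more of 12 basal markers (6975 CPM) and 26 of 3 or more of 12 mature luminal markers (275 CPM). Of the 26 Ltf cells, 25 had 3 or more progenitor, 16 basal and 10 mature luminal markers, and of the 19 Kit cells 17, 13 and 7 did. Of the 21 Lrg1 cells 18, 17 and 11 did. Among all retained cells, 95 of 171 pubertal cells had reads of 3 or more basal markers. So did 106 of 107 adult cells 48 to 188 and 36 of 45 other adult cells. For mature luminal markers this was 129, 47 and 30 cells, and for progenitor markers 44, 57 and 8. Reads of several lineages are therefore not read as particular to cells with many reads of these genes. The part of such reads in their levels was not tested. Fibroblast markers had a median summed level of 10 CPM in the cells of each of these genes.

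The number of the 8 genes found in the same cell differed by class and by set of cells. The genes were chosen on their levels by lineage in these cells, so their number by class describes the choice. A progenitor-like cell had a median of 5 of the 8 (range 1 to 7), 4 in puberty and 5.5 in the adult, and no cell of the 323 had all 8. Of the 67 pubertal mature luminal-like cells, 58 had none of them. Adult cells 48 to 188 had a median of 3 over all classes, 3 in their basal-like cells and 4 in their cells of unnamed cluster 5. The median was 0 over all pubertal cells, of which 104 of 171 had none. The other adult cells had a median of 1, with none in 13 of 45, and 15.6% of them had 3 or more of the genes, against 13.5% in puberty and 62.6% in cells 48 to 188.

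Co-detection with Elf5, the transcription factor of alveolar cells, was examined within each stage. How many of all genes are found more often with Elf5, or with Aldh1a3 or a casein below, was not counted. The counts for the 8 genes are therefore not read as particular to them. In puberty 14 cells had Elf5 reads, and each of the 8 genes was found more often in them than in the 157 cells without. Kit was found in 57.1% of cells with and 12.1% of cells without Elf5, Slc28a3 in 50.0 and 4.46%, Slc5a8 in 50.0 and 7.01% and Ltf in 42.9 and 6.37%. For Spp1, Fcgbp and Lrg1 the exact intervals overlapped. In the adult, 14 cells had Elf5, and 7 of the 8 genes were found more often in them than in the 138 others. Fcgbp was found in 14 of 14 cells with Elf5 and in 47.1% of those without, and Slc28a3 in 71.4 and 19.6%. Slc5a8 was in 0 of the 14 and in 7.25% of the rest, with overlapping intervals. For Spp1, Ltf, Trf and Kit the adult intervals overlapped as well, so only those of Fcgbp, Lrg1 and Slc28a3 stood apart. Within the adult sets the count was 6 of 8 in each, since Kit was no more frequent with Elf5 in cells 48 to 188 and Ltf had no reads in the others. Among the 39 progenitor-like cells alone, however, only Slc28a3 was found more often with Elf5 in both stages, and 3 of the 8 genes were in each single stage.

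Aldh1a3 was detected in 33 pubertal and 15 adult cells. In puberty 7 of the 8 genes were more frequent in cells with Aldh1a3. Slc5a8 was found in 39.4% of these and 3.62% of the others, Kit in 42.4 and 9.42%, Ltf in 30.3 and 4.35% and Trf in 57.6 and 21.7%. In the adult, 4 of 8 were more frequent (6 in cells 48 to 188 and 3 in the others), and every interval overlapped. Lrg1 and Aldh1a3, both rare, did not meet in a cell: of the 36 cells with Lrg1 and the 48 with Aldh1a3 among 323, none had both. They lay mostly in different stages, Lrg1 in 10 pubertal and 26 adult cells and Aldh1a3 in 33 and 15. How many other pairs of rare genes never met was not counted, so nothing is read from this. The 15 Lrg1 and 14 Aldh1a3 cells of the progenitor-like class are part of these cells and also lay mostly in different stages.

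**Figure D5:**
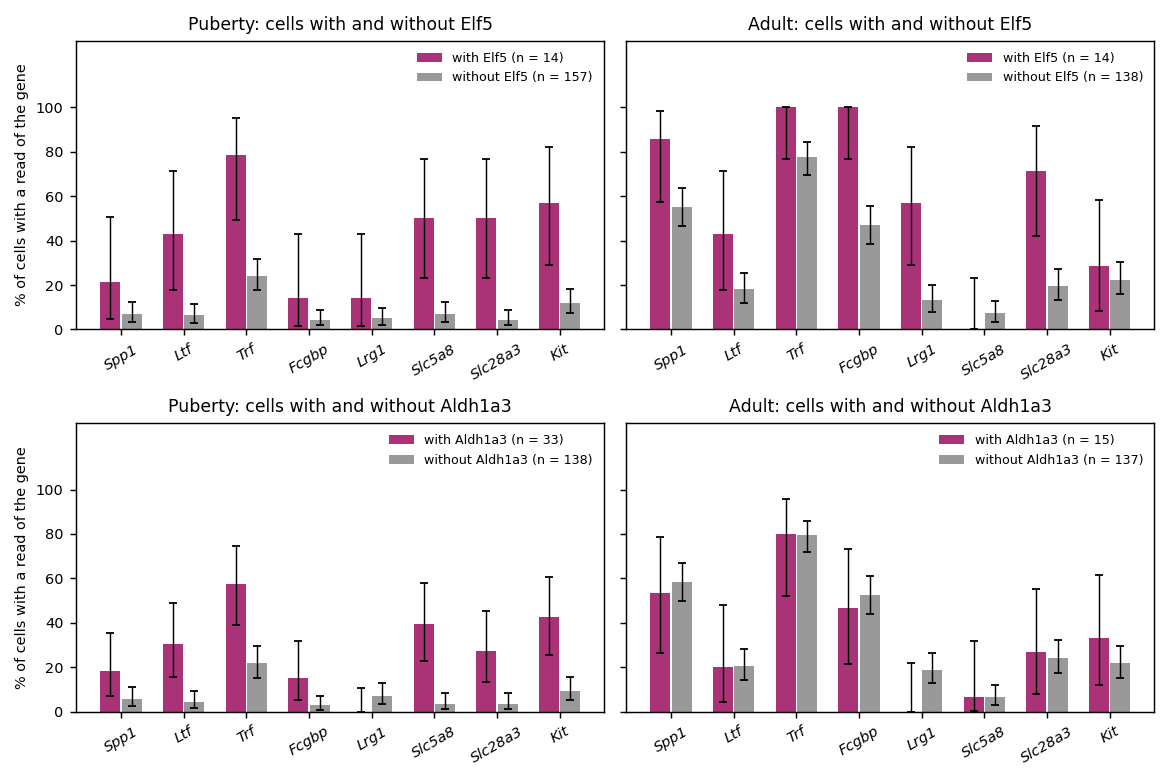
Share of cells with at least 1 read of each of the 8 genes among cells with (magenta) and without (grey) a read of Elf5 (top) or Aldh1a3 (bottom), in puberty (left) and the adult (right), with 95% Clopper-Pearson intervals. The magenta bars are higher for all 8 genes with Elf5 in puberty, and the bars for Aldh1a3 in the adult overlap.

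Caseins were found with the 8 genes in both stages. In puberty 82 cells had reads of at least 1 casein, and all 16 Ltf cells were among them. Kit was found in 30.5% of cells with and 2.25% of cells without a casein, and Slc5a8 in 19.5 and 2.25%. In the adult 132 of 152 cells had a casein read, and each of the 8 genes was again more frequent in them than in the 20 without. This held for 8 of 8 in cells 48 to 188 and for the 6 genes with reads in the others. Casein reads were spread over all classes in the adult, so correlations of levels, log2(CPM + 10), say more than presence. Between Csn3 and the 8 genes the median Pearson r was 0.37 across 171 pubertal cells, 0.59 across 107 adult cells 48 to 188 and, for the 6 genes present, 0.73 across 45 other adult cells. Within the 39 progenitor-like cells it was 0.41, from −0.36 for Slc5a8 to 0.57 for Spp1 and Lrg1, while Kit was at 0.00. Spp1 was also close to Csn1s1 in puberty (r = 0.75 across 171 cells, of which 8 had both). Cells of a set share a stage and a depth, most are at 0 for most of these genes, and r is given as a description.

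Among themselves the 8 genes were positively correlated in 26 of 28 pairs in puberty (median r 0.35, −0.06 to 0.57) and in 28 of 28 pairs in adult cells 48 to 188 (median 0.40, 0.01 to 0.70), where Trf and Fcgbp formed the closest pair. Since the genes were chosen on their levels in these same cells, these counts describe the choice. How many pairs of all genes were positive was not counted. Within the progenitor-like class the pairs were less alike, with 21 of 28 positive and a median of 0.17. The lowest was Spp1 with Slc5a8, at −0.36, with reads of both in 5 of these 39 cells. Fcgbp was closest to Wfdc18 (mean r 0.78), Csn3 (0.73) and Trf (0.72) among 7570 genes compared. Trf was closest to Wfdc18 (0.67), a secreted protein with a whey acidic protein domain, Csn3 (0.67) and the alpha-lactalbumin gene Lalba (0.62). Spp1 was closest to the milk fat gene Btn1a1 (0.56), Lalba (0.55) and Trf (0.55). Ltf had Lalba (0.60), Wfdc18 (0.56) and Trf (0.53) nearest, and Lrg1 had Lalba (0.59), Fcgbp (0.50) and Lipa (0.49). Slc28a3 was nearest to Trf (0.52), Plet1 (0.51) and Wfdc18 (0.50), and Kit to Ltf (0.47), Wfdc18 (0.44) and Kcnn4 (0.38). Slc5a8 stood apart in having the tight junction gene Cldn1 first (0.50), before Wfdc18 (0.46) and Nkap (0.40). These values are means of r over the sets of cells in which at least 10 cells had reads of the gene, which left out puberty for Fcgbp and the other adult cells for the rest except Trf and Fcgbp.

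Of 10 genes of ligands and receptors of the 8 proteins, 8 reached 20 CPM, and 0 were at least 2-fold higher or lower in the adult sum, where 14.8% and 20.3% of all genes were. Their median log2 ratio was 0.15. In cells 48 to 188 the counts were also 0, and in the other adult cells Kitl was higher (957.3 CPM) and Cd44, Itgb5 and Tfrc were lower (164.7, 7.33 and 31.1 CPM). Kitl, the ligand of Kit, was at 449.6 CPM in pubertal and 763.2 CPM in adult cells, and was detected in 84.8% of all retained cells. Progenitor-like cells had 81.6 CPM of it at puberty and 510.5 CPM as adults. The osteopontin receptor genes Itgb1, Cd44, Itgav, Itgb5 and Itgb3 had 505.7, 328.0, 243.3, 76.6 and 33.9 CPM over all cells. Tfrc, the transferrin receptor, was at 109.2 CPM in pubertal and 58.5 CPM in adult cells, and in progenitor-like cells at 203.7 and 27.5 CPM. The lactoferrin receptor gene Lrp1 was at 24.6 CPM over all cells, Eng, whose product binds Lrg1, at 7.89 CPM, and Tfr2, the other transferrin receptor, at 0.279 CPM.

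Counts of the milk, mucosal and transport lists stand against the same 14.8% and 20.3%. All 4 measured caseins were at least 2-fold higher in the adult, Csn3 by 2.48-fold (2117 and 5243 CPM), Csn1s1 by 8.22-fold, Csn2 by 14.1-fold and Csn1s2a by 36.0-fold, and Csn1s2b had no read. Only 3 pubertal cells had Csn1s2a reads and 2 had Csn2 reads, so the folds of these 2 genes rest on very few pubertal cells. Csn3 was less than 2-fold higher in the other adult cells (2726 CPM) than in puberty. Between the adult sets, Csn1s1, Csn1s2a and Csn2 were at least 2-fold lower in cells 48 to 188, where 28.7% of all genes were, and Csn3 was higher. Lalba, Btn1a1 and Mfge8, the 3 other milk genes that reached 20 CPM, were higher in the pooled adult cells and in cells 48 to 188, but 0 of the 3 were in the other adult cells (median log2 ratio −0.04). Of 13 measured genes of the secreted and mucosal defence list, 6 were higher (Lcn2, Hp, Muc1, Muc20, Reg3g and Plb1) and 4 lower (Muc4, Muc15, Cel and Fgb), with a median log2 ratio of 0.98. In cells 48 to 188 it was 4 and 4 of 12 (0.51), and in the other adult cells 3 higher and 5 lower of 12 (−0.52). Its most abundant genes were Wfdc18 (2415 CPM at puberty, 2709 CPM in adult cells), the siderophore-binding Lcn2 (896.4 and 3482 CPM), the chaperone gene Clu (2108 and 1309 CPM) and the fibrinogen gene Fgb (834.7 and 146.2 CPM). Of 11 measured membrane transport genes, 2 were higher (Slc1a1 and Slc46a3) and 1 lower (Clcn3), against 3 and 3 of 11 in cells 48 to 188 and 3 and 0 of 10 in the others. The most abundant were the cotransporter gene Slc12a2 (686.4 and 1120.5 CPM), the chloride exchanger gene Clcn3 (147.3 and 60.7 CPM), the folate receptor gene Folr1 (32.7 and 64.2 CPM) and the potassium channel gene Kcnn4 (55.8 and 33.5 CPM).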

How the data were processed

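The authors aligned reads to mm10 with Subread. They then counted read pairs on the RefSeq genes that come with Rsubread, by featureCounts, and deposited the raw counts of each cell as a table of its own. Versions and the use of strand are not given in the sources used here, so counts of overlapping genes are uncertain, and PCR copies were counted separately. Of 27179 Entrez identifiers, 25275 matched the RefSeq genes of GRCm38.p6. The unmatched held 1.84% of read pairs. Genes of mitochondria (15) and ribosomal proteins (123) were removed and minimums of 100000 read pairs and 1500 genes were set on cells, after the study's methods, which kept 323 of 444 cells, fewer than the study used. Retained cells were thinned to 100000 read pairs without replacement (seed 1) and summed as CPM. RPKM used the exon lengths in the tables.

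With 1 sample per stage no test was made. A gene was called 2-fold higher or lower by its sums, with at least 20 CPM in 1 group, and a sum of 0 was set to 3 reads. Cells were clustered on log2 RPKM (prior count 5) standardised per gene. Complete linkage, the first choice, named no luminal progenitor-like cluster with 4 to 10 clusters, so Ward linkage was used, at the fewest clusters that named all classes (5). A name needed 10 cells, 3 markers in 50% of the cells and 20 percentage points above the rest, and a marker among the 10 leading genes. Doublets were not called, and the authors checked captured cells under the microscope. Named genes were the 8 genes, Elf5, Aldh1a3, the caseins, every ligand or receptor with a level, the 4 most abundant genes of the other lists and the 3 most alike genes by mean Pearson r among genes in at least 10% of cells; other lists' members are named only where they were called. The genes and lists were chosen with earlier results of these data known. Alternatives were unthinned counts, another seed, TMM factors (edgeR 4.0.16, R 4.3.3), stricter cells, each adult set alone, other clusterings and leaving out the highest cell. Computations used Python 3.11.15, numpy 2.4.6, scipy 1.17.1 and pandas 2.3.3, and were checked on simulated data.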

Additional observations from a re-analysis of the deposited data

Results flagged for a closer look

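Reads of the 8 genes were also present in the cells that missed the depth minimums and enter no comparison above, 50 pubertal cells with 2343024 read pairs and 71 adult cells with 2428783 read pairs. Results are listed here where the reads passed the 3 that a count of 0 allows. In the pubertal cells Trf had 67 reads, Kit 42, Slc5a8 13 and Spp1 6. In the adult cells Trf had 9490 reads (3907 CPM over 38 cells), of which 4730 came from 1 cell. Spp1 had 984 reads (405.1 CPM over 27 cells) and Fcgbp 640 reads over 25 cells. Kit had 415 reads, 170.9 CPM and thus above its level in retained adult cells, but 309 of them came from 1 cell. Ltf had 188 reads (170 in 1 cell), Slc28a3 117 (97 in 1 cell), Slc5a8 56 (55 in 1 cell) and Lrg1 18 (15 in 1 cell).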

How the results depend on the processing

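No paired analysis was possible because the numbers in the labels name single cells and pair nothing between stages. Of 20 alternative values of the summary counts and medians, 18 stayed within 1.5 times the value in the report. The number of genes at least 2-fold higher in the adult was 5, and 4 to 6 under the 7 alternatives. Exceptions were the count for adult cells 48 to 188 over the others, which went from 3 to 5 without the highest cell of each gene in each set, and the count found more often with Elf5 in both stages, which went from 7 to 1 within luminal progenitor-like cells alone, where 13 of 39 cells had Elf5. Log2 ratios of single genes were less stable. Of their alternative values, with the share over all genes counted in, 20 stayed the same and 55 left the counting-error interval of the ratio. In 1 more, an at least 2-fold ratio changed direction. That was the log2 ratio of Trf, adult over puberty, which was 1.67 and turned to −0.02 with the other adult cells only. That of Ltf went from 0.64 to −8.25, a bound against 0 reads, in the same setting, and to 1.55 with at least 200000 read pairs and 2500 genes per cell (129 pubertal and 109 adult cells). Slc5a8 stayed negative, from −6.66 to −2.47, and Spp1 (3.29 to 4.90), Fcgbp (3.69 to 5.07), Lrg1 (2.68 to 4.85) and Slc28a3 (1.78 to 2.42) stayed positive under all 7. Fcgbp had the highest ratio of the 8 in the report, but Spp1 (4.86) and Lrg1 (4.85) passed it (4.59) without the highest cells. Kit ranged from −1.03 on unthinned counts to −0.22. With 7 clusters, Slc28a3 in puberty was highest in an unnamed cluster and the count of genes highest in the progenitor-like class was 7 of 8. A Ward clustering of thinned counts, chosen after seeing the data, gave 8 of 8 with 49 progenitor-like cells and the same median of 5 genes per cell. Complete linkage on unthinned counts gave no progenitor-like class and thus no value. Without a minimum level, 20.6% of 15283 genes were at least 2-fold higher in the adult. With 1 sample per stage, rare and uneven detection limits every stage value, and a gene carried by 1 cell moves with that cell.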

Other observations

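Cells at the top of 1 gene were not always at the top of others. The highest Kit cell, at 920 CPM, was a pubertal cell of unnamed cluster 1 in which none of the other 7 genes was detected. Of the 5 cells with the most Lrg1, 3 were progenitor-like, 1 was of unnamed cluster 5 and 1 was an adult mature luminal-like cell at 2050 CPM with 4 of the 8 genes. The 5 cells with the most Slc5a8 were all pubertal, 3 of them progenitor-like. The cell with the most Spp1, at 151310 CPM, had 6 of the 8 genes.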
